A study of Homo sapiens with 4 samples.

Results

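The small nuclear RNAs (snRNAs) U4 and U5 and the snRNAs of the minor spliceosome were followed in RNA recovered with ALKBH5, an enzyme that removes the N6-methyladenosine (m6A) mark from RNA. The 10 genes were taken by symbol from a table of 26830 gene rows, and all 10 were in it: RNU4-1 and RNU4-2 (U4), RNU5A-1, RNU5B-1, RNU5E-1 and RNU5F-1 (U5), RNU11, RNU12, RNU4ATAC and RNU6ATAC. The cells were NOMO-1, an acute myeloid leukaemia line with monocytic features, and every library came from cells that overexpressed 3xFlag-tagged ALKBH5 from a lentivirus, selected with puromycin and sorted for GFP. After UV crosslinking, 2 libraries were made from input RNA (input 1 and 3) and 2 from RNA pulled down with an anti-Flag antibody (Flag-IP 1 and 3). A pull-down without the tag is not analysed here, and the level of RNA that sticks to antibody or beads alone is therefore unknown. The comparison of Flag-IP with input asks which of these RNAs were recovered with the tagged protein more, or less, than their abundance in the lysate.

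Spliceosomal snRNAs act as ribonucleoprotein particles (snRNPs) that assemble on each intron and catalyse its removal. U4 arrives base-paired to U6, which it holds inactive, and joins with U5 in the tri-snRNP; U4 is released when the spliceosome is activated. U5 carries a conserved loop that holds the ends of both exons during catalysis. A rare class of introns is removed by the minor spliceosome, in which U11 recognises the 5′ splice site, U12 the branch point, and U4atac and U6atac take the places of U4 and U6, while U5 serves both machines. U4, U5, U11, U12 and U4atac are made by RNA polymerase II and bind a ring of Sm proteins at a uridine-rich Sm site; U6atac is made by RNA polymerase III and binds the related LSm ring.

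The sequences are those of GENCODE 29 on GRCh38, written as DNA, 5′ to 3′ along the RNA. The U4 copies are shown because their near identity decides how far reads can be assigned to one of them, and capitals mark the bases at which they differ. RNU4-1 lies at chr12:120293097-120293237 and RNU4-2 at chr12:120291763-120291903, both on the minus strand.
RNU4-1: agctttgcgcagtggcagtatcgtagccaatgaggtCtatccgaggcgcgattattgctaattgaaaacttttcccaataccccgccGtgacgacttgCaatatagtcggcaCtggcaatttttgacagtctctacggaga
RNU4-2: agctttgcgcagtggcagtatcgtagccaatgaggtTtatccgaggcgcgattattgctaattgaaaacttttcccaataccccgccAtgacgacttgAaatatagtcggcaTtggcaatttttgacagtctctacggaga
Over 141 bases the copies differed at 4 positions (97.2% identity). Counted from the first base, with RNU4-1 given first, the differences were C37T, G88A, C99A and C113T. Of the 92 windows of 50 bases in RNU4-2, 1 was identical to a stretch of another annotated snRNA, against 12 of 92 in RNU4-1. Here and below, windows were compared only with annotated snRNAs and snRNA pseudogenes of 100 to 160 bases.

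The U5 copies were more divergent. Identity was 94.0% between RNU5A-1 and RNU5B-1, 88.3% between RNU5A-1 and RNU5E-1, and 83.9% between RNU5A-1 and RNU5F-1. RNU5A-1 and RNU5B-1 each shared 9 of 67 windows of 50 bases, RNU5E-1 shared 16 of 71 with RNU5D-1, and RNU5F-1 shared 0 of 68.

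The minor snRNAs are printed with Sm-type motifs in capitals, since RNU6ATAC was the one member in which none was found. RNU11 is at chr1:28648600-28648733 (plus strand), RNU12 at chr22:42615244-42615393 (plus strand), RNU4ATAC at chr2:121530881-121531007 (plus strand) and RNU6ATAC at chr9:134164439-134164564 (minus strand).
RNU11: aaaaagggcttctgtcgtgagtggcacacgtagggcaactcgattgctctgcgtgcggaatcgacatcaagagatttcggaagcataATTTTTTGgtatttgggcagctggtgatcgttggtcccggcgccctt
RNU12: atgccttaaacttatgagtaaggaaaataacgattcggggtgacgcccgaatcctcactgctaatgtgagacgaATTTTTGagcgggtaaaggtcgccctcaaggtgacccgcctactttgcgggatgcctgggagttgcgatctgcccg
RNU4ATAC: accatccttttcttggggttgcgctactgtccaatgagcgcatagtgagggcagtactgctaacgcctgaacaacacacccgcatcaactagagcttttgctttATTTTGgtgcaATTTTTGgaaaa
RNU6ATAC: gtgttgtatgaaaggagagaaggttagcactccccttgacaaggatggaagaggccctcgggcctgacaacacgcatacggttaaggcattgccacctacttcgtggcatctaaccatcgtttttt
Sm-type motifs of an A, a run of T and a G were searched on the RNA strand alone, with runs of 4, 5 or 6 T, none of which contains another. The motif ATTTTTG was in RNU4-1, RNU4-2, RNU12 and RNU4ATAC and in 4.71% of 1400 other annotated snRNAs and snRNA pseudogenes of 100 to 160 bases. The motif ATTTTTTG was in the 4 U5 copies and RNU11 and in 1.29% of those transcripts. The motif ATTTTG was in RNU4ATAC, beside its longer one, and in 6.29% of them. Of the motifs of the kind that m6A writers prefer, only 4 were searched, on the same strand. Other motifs of that kind were not searched, and members without a match below may hold one. The motif AAACT was found in RNU4-1, RNU4-2 and RNU12 and in 18.3% of the other snRNAs. The motif GGACT was in no member and in 2.5% of the other snRNAs, the motif GGACA in no member and 4.0%, and the motif AGACT in no member and 5.57%. No match says only that these letters are not in the RNA. RNU11, RNU12 and RNU4ATAC had no window of 50 bases in common with another annotated snRNA of 100 to 160 bases, and RNU6ATAC shared 34 of 77 with pseudogenes.

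RNU4ATAC lies in an intron of CLASP1, a microtubule-binding protein gene on the opposite strand, and in an intron of the antisense RNA gene AC012447.1 on its own strand. RNU5A-1 lies in an intron of PARP16 on the opposite strand. RNU5E-1, RNU11 and RNU12 each overlap an exon of an annotated long noncoding RNA on the same strand, and RNU5F-1 an intron of ARMH1 on the opposite strand. RNU4-1, RNU4-2, RNU5B-1 and RNU6ATAC overlapped no other annotated gene. Whether strand was used in quantification is not given in the sources used here, so reads of overlapping genes may not be told apart.

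Expression was deposited in TPM, the number of transcripts of a gene per 1000000 transcripts, which divides by RNA length. It keeps no depth, so the read number behind a value is unknown, no counting error can be given, and a row at 0 is only listed at 0. Ribosomal, signal recognition particle and other structural RNAs took 96.6% ± 0.322 (SD, n = 2, as for all mean TPM values and shares) of input TPM and 93.0% ± 0.760 of Flag-IP TPM, so all other genes together had a share of 3.43% ± 0.322 and 6.95% ± 0.760. Of 15 markers of monocytic leukaemia 8 had a mean of at least 1 TPM, among them CTSG, ELANE and CD33. The rest, with lower means, were LYZ, MPO, CSF1R, ITGAM, FCGR1A, HOXA9 and CD14, of which CD14 was listed at 0. The list summed to 62.7 to 76.2 TPM in the inputs against 111 to 125 TPM in Flag-IP. Of 13 markers of other cell types only PECAM1, which monocytes also express, reached that mean, and 9 were listed at 0; the list summed to 0.600 to 1.05 and 2.32 to 2.55 TPM. The part of these shifts in the results was not tested. The labels do not say whether the 2 libraries of a group stem from different cultures, and the p-values then measure only how these libraries spread, which may be technical. As the extracts are bulk, less of an RNA in every cell and its presence in fewer cells cannot be told apart.

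U4 was the most abundant of the 6 types, and its deposited TPM was higher in Flag-IP, though it turned to negative differences, not past the threshold, after median-ratio scaling and with structural RNAs left out. RNU4-2 was at 668.54 and 683.52 TPM in inputs 1 and 3 and at 1239.59 and 1263.64 TPM in Flag-IP 1 and 3. RNU4-1 was at 509.93 and 487.07 TPM in the inputs against 906.73 and 902.88 TPM in Flag-IP. The groups did not overlap for either copy and the libraries within a group lay close together. The mean of RNU4-2 was 676 ± 10.6 TPM over the inputs against 1252 ± 17.0 TPM over Flag-IP (ratio 1.85), and that of RNU4-1 was 498.5 ± 16.2 and 905 ± 2.72 TPM (ratio 1.82). Summed over both copies, U4 was at 1175 ± 5.57 TPM in the inputs against 2156 ± 14.3 in Flag-IP.

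U5 went the other way, in all 4 copies. RNU5A-1 was at 277.07 and 219.95 TPM in inputs 1 and 3 and at 116.58 and 193.76 TPM in Flag-IP 1 and 3. Its groups did not overlap, but Flag-IP 3 was close to input 3. RNU5B-1 was at 110.10 and 94.08 TPM in the inputs against 59.15 and 60.94 TPM in Flag-IP, giving a ratio of the means of 0.588. RNU5E-1 was at 79.44 and 84.78 TPM against 70.32 and 63.43 TPM (0.814), the smallest shift among the copies. RNU5F-1 was at 6.15 and 9.98 TPM against 4.51 and 3.04 TPM (0.468). No copy had overlapping groups. The sum of the 4 copies was 441 ± 45.2 TPM in the inputs against 286 ± 49.9 TPM in Flag-IP, giving a ratio of 0.649; with RNU5D-1, another U5 copy in the table, it was 0.648. RNU5D-1 itself was at 13.8 ± 1.38 and 8.71 ± 1.03 TPM.

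The 4 minor snRNAs were higher in deposited TPM in Flag-IP with no overlap of the groups, by ratios from 1.41 to 4.53, of which RNU12 turned to lower with each other scaling. Of all tested genes 93.1% had both Flag-IP libraries above both inputs, and the median ratio was 2.38, above that of RNU12. RNU11 was at 34.33 and 30.62 TPM in inputs 1 and 3 and at 114.79 and 131.25 TPM in Flag-IP 1 and 3, a ratio of 3.79. RNU12, whose RNA forms one particle with U11, was at 24.72 and 31.36 TPM against 39.29 and 39.66 TPM, a ratio of 1.41. The groups of RNU12 did not overlap, but the gap between them was little wider than that between its inputs.

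RNU4ATAC was at 9.32 and 5.68 TPM in the inputs against 23.63 and 44.36 TPM in Flag-IP, giving a ratio of 4.53, the largest among the members. Its Flag-IP libraries lay further apart than Flag-IP 1 lay from input 1. RNU6ATAC, its partner, was at 84.46 and 61.04 TPM against 150.19 and 239.50 TPM, a ratio of 2.68. For both atac RNAs Flag-IP 3 was the highest library and input 3 the lowest. CLASP1, in whose intron RNU4ATAC lies, was at 0.960 and 1.36 TPM in the inputs against 6.55 and 5.19 TPM in Flag-IP, giving a ratio of 5.06, with Flag-IP 1 the higher library; its part in the RNU4ATAC values was not tested.

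**Figure D1:**
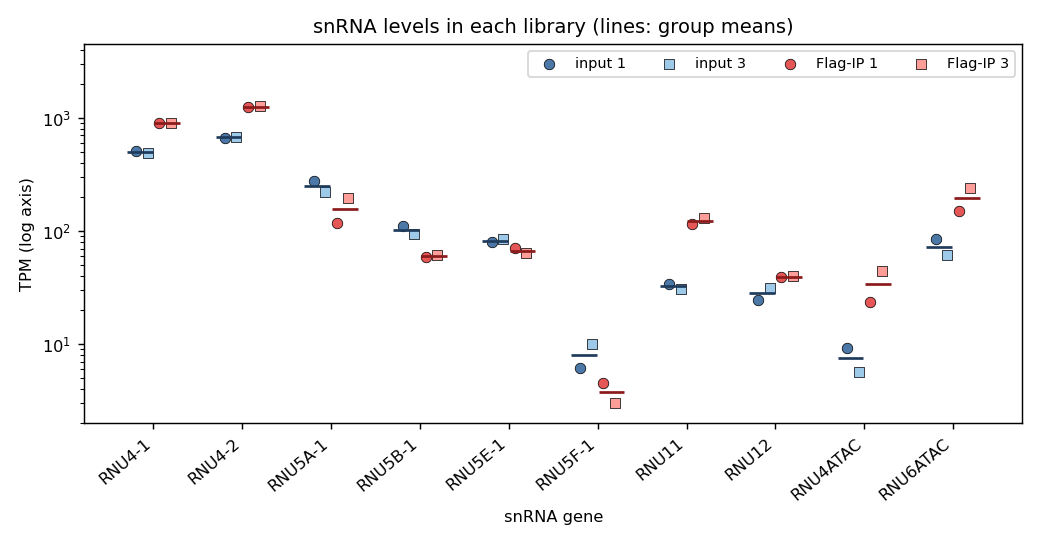
TPM on a log axis of each snRNA gene in the 2 input libraries (blue) and the 2 Flag-IP libraries (red), with circles for number 1, squares for number 3 and lines for group means (n = 2). The 4 U5 rows lie lower in Flag-IP, and the other 6 rows lie higher.

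The order of the levels was partly kept. In input it ran from RNU4-2 and RNU4-1 through RNU5A-1, RNU5B-1, RNU5E-1, RNU6ATAC, RNU11, RNU12 and RNU5F-1 to RNU4ATAC. Neighbours whose input libraries overlapped were RNU5E-1 with RNU6ATAC, RNU11 with RNU12, and RNU5F-1 with RNU4ATAC. In Flag-IP RNU6ATAC and RNU11 stood above RNU5B-1 and RNU5E-1 in both libraries. RNU6ATAC also stood above RNU5A-1 in both, and RNU4ATAC above RNU5F-1. U5 made up 25.1% ± 1.61 of the TPM summed over the 10 rows in input and 10.1% ± 1.22 in Flag-IP, U4 66.9% ± 2.27 and 76.2% ± 3.64, and U6atac 4.13% ± 0.784 and 6.83% ± 1.86. U11 went from 1.85% ± 0.0780 to 4.34% ± 0.175 and U4atac from 0.425% ± 0.13 to 1.19% ± 0.453, while U12 was at 1.60% ± 0.329 and 1.39% ± 0.0665. Together the 10 rows held 0.176% ± 0.00679 of all TPM in input and 0.283% ± 0.0154 in Flag-IP.

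**Figure D2:**
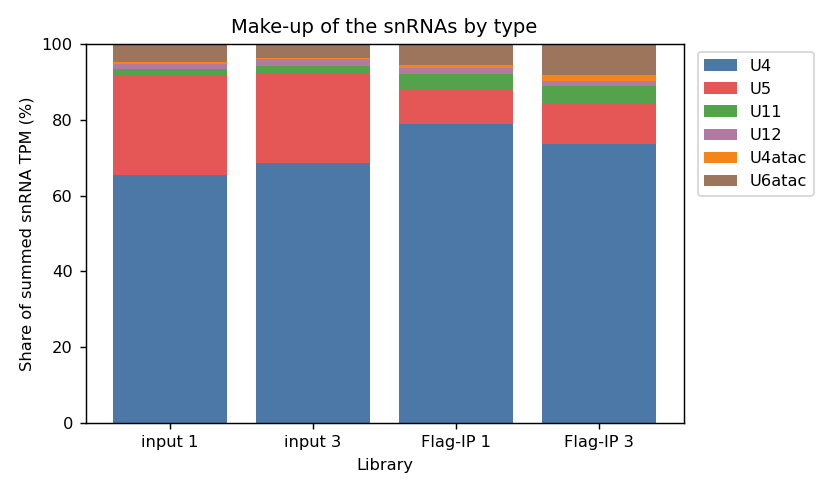
Share (%) of the TPM summed over the 10 snRNA rows that each type took in each of the 4 libraries, as stacked bars from 0 to 100. The U5 segment is 26.2% and 23.9% in the inputs and 9.20% and 10.9% in Flag-IP.

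Dividing a library by 1 factor leaves the ratios between its snRNAs as they are (quantile scaling does not), and 5 ratios of deposited TPM were compared. The ratio of U4 to U5 was 2.49 and 2.86 in inputs 1 and 3 and 8.57 and 6.75 in Flag-IP 1 and 3, a 2.85-fold increase. U11 to U12 was 1.39 and 0.976 in input and 2.92 and 3.31 in Flag-IP, a 2.67-fold increase. U4atac to U6atac was 0.110 and 0.0931 against 0.157 and 0.185, and U4 to U4atac 126 and 206 against 90.8 and 48.8. These 4 ratios did not overlap between groups, and each change was larger than the spread within either group. The ratio of RNU4-2 to RNU4-1 was 1.31 and 1.40 in input and 1.37 and 1.40 in Flag-IP, so the make-up of U4 by copy moved by less than its spread. With 2 libraries against 2, an exact two-sided permutation test cannot go below p = 0.333, which the 4 ratios reached (0.417 after Benjamini-Hochberg adjustment over the 5). RNU5A-1 made up 56.2% ± 3.40 of the U5 sum in input and 53.4% ± 9.76 in Flag-IP, and its share differed more between Flag-IP 1 (46.5%) and Flag-IP 3 (60.3%) than between the groups.

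**Figure D3:**
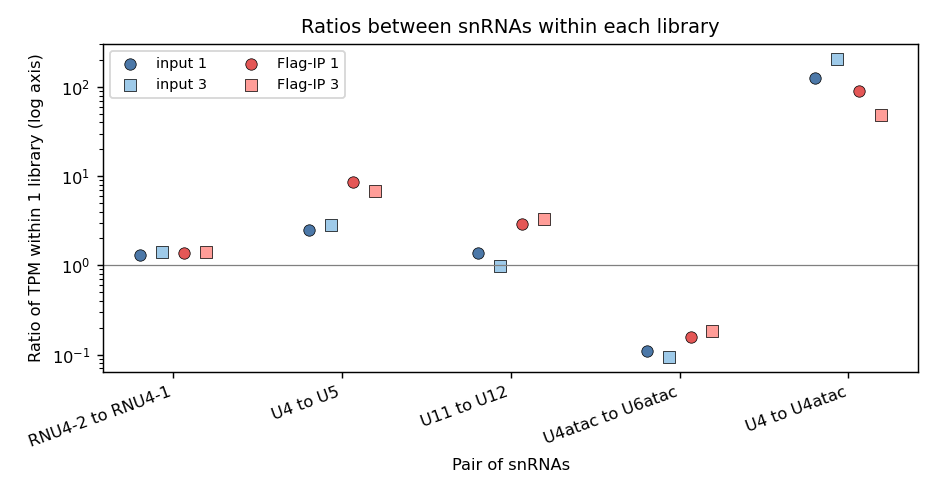
Ratio of TPM between 2 snRNAs (or sums of copies) of the same library, on a log axis, for 2 input (blue) and 2 Flag-IP (red) libraries. U4 to U5 is 2.49 to 2.86 in input and 6.75 to 8.57 in Flag-IP, while RNU4-2 to RNU4-1 stays between 1.31 and 1.40.

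The tests were run over the 6487 genes that averaged 1 TPM or more, with limma on log2(TPM + 1). A gene was called at a Benjamini-Hochberg adjusted p below 0.05. As deposited, each error was set by a trend of spread with level over tested genes, not by the gene's own libraries. The deposited p-values may therefore be too small. On the deposited scale 6 members were higher in Flag-IP, where 86.6% of all tested genes were called higher, and 3 were lower, where 0.740% of genes were called lower. The groups did not overlap in any member: Flag-IP was the higher group for 6, as in 93.1% of tested genes, and the lower for 4, as in 1.09%. The median difference of the members was 0.67 (log2) and that of all tested genes 0.84. Because most genes were higher on this scale, libraries were also divided by the median ratio over tested genes, so that a difference is relative to the typical gene. On that median-ratio scale 1 member was higher and 5 were lower, against 22.3% and 18.6% of tested genes, and the median was -0.57 for the members and -0.01 for all. Adding 1 TPM before taking logs makes a log2 difference too small for the scarcest rows. It also lowers the deposited median of all tested genes (0.84), whose median ratio of mean TPM was 2.38. The members' median is therefore not set against a like value.

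Of the 4 U5 copies, 3 were called lower as deposited and 4 on the median-ratio scale. RNU5B-1 fell by 0.75 ± 0.21 (log2 ± SE, limma adjusted p = 0.000476) as deposited and was at -1.998 ± 0.19 relative to the typical gene (limma adjusted p = 0.00127). RNU5A-1 was at -0.71 ± 0.20 and -1.97 ± 0.35 (limma adjusted p = 0.000565 and 0.00782) and RNU5F-1 at -0.91 ± 0.21 and -1.96 ± 0.17 (4.4e-05 and 0.00105). RNU5E-1 was at -0.29 ± 0.21 as deposited and did not pass (limma adjusted p = 0.17); on the median-ratio scale it was at -1.54 ± 0.11 (limma adjusted p = 0.000696). In the ranking of ratios of mean TPM, 18 of the 6487 tested genes lay below RNU5F-1, 32 below RNU5B-1, 37 below RNU5A-1 and 72 below RNU5E-1. The deposited call of RNU5A-1 was lost without Flag-IP 1 (-0.35, adjusted p = 0.23) or input 1 (-0.546, adjusted p = 0.0781), and that of RNU5F-1 without input 3 (-0.60, adjusted p = 0.076). With no filter on low values neither passed (adjusted p = 0.106 and 0.0549), at the same differences. On the median-ratio scale all 4 calls held when each library was left out in turn, with limma adjusted p from 0.00115 to 0.0246.

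The direction of U4 depended on the scaling. RNU4-2 stood at 0.89 ± 0.18 and RNU4-1 at 0.86 ± 0.18 in the deposited values (limma adjusted p = 2.2e-06 and 7.5e-06), where the median gene was at 0.84. The added 1 TPM lowers that median, so it is not a like value for these abundant rows. By ratio of mean TPM they were at 1.85 and 1.82, below the median of 2.38. Ranked this way, RNU4-2 lay under 72.3% and RNU4-1 under 73.7% of all genes tested. On the median-ratio scale RNU4-2 and RNU4-1 were at -0.38 ± 0.16 and -0.40 ± 0.16 and did not pass (limma adjusted p = 0.10 and 0.092). With scaling on non-structural genes they were at -0.13 and -0.16, and with quantile scaling they were higher, at 1.38 and 0.92 (limma adjusted p = 0.0021 and 0.00084). RNU4-2 was called lower on the median-ratio scale without Flag-IP 3 (-0.52, limma adjusted p = 0.045).

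The minor snRNAs spread over both sides of the typical gene. RNU11 rose by 1.89 ± 0.21 as deposited (limma adjusted p = 4.1e-18) and by 0.65 ± 0.20 on the median-ratio scale (limma adjusted p = 0.048). The second call was lost without input 3 (0.44, adjusted p = 0.21), and likewise when Flag-IP 3 was left out (0.42, adjusted p = 0.15). RNU12 was at 0.49 ± 0.21 as deposited (limma adjusted p = 0.026) and at -0.74 ± 0.14 relative to the typical gene (limma adjusted p = 0.0088), so its direction also turned with the scaling. Its deposited call was lost without input 1 (0.32, adjusted p = 0.32), Flag-IP 1 (0.495, adjusted p = 0.0840) or Flag-IP 3 (0.482, adjusted p = 0.0872). RNU4ATAC rose by 2.01 ± 0.21 as deposited (limma adjusted p = 2.6e-19) and was at 0.83 ± 0.43 on the median-ratio scale, where it did not pass (adjusted p = 0.16). With each library left out it ranged there from 0.28 without Flag-IP 3 (limma adjusted p = 0.59) to 1.44 without Flag-IP 1, where alone it passed (limma adjusted p = 0.036). RNU6ATAC rose by 1.39 ± 0.20 as deposited (limma adjusted p = 7.2e-11) and was at 0.14 ± 0.36 on the median-ratio scale (adjusted p = 0.78), turning to -0.22 without input 3 and -0.32 without Flag-IP 3. Of tested genes, 13.8% had a larger ratio of mean TPM than RNU4ATAC, 20.2% than RNU11, 39.99% than RNU6ATAC and 89.8% than RNU12.

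**Figure D4:**
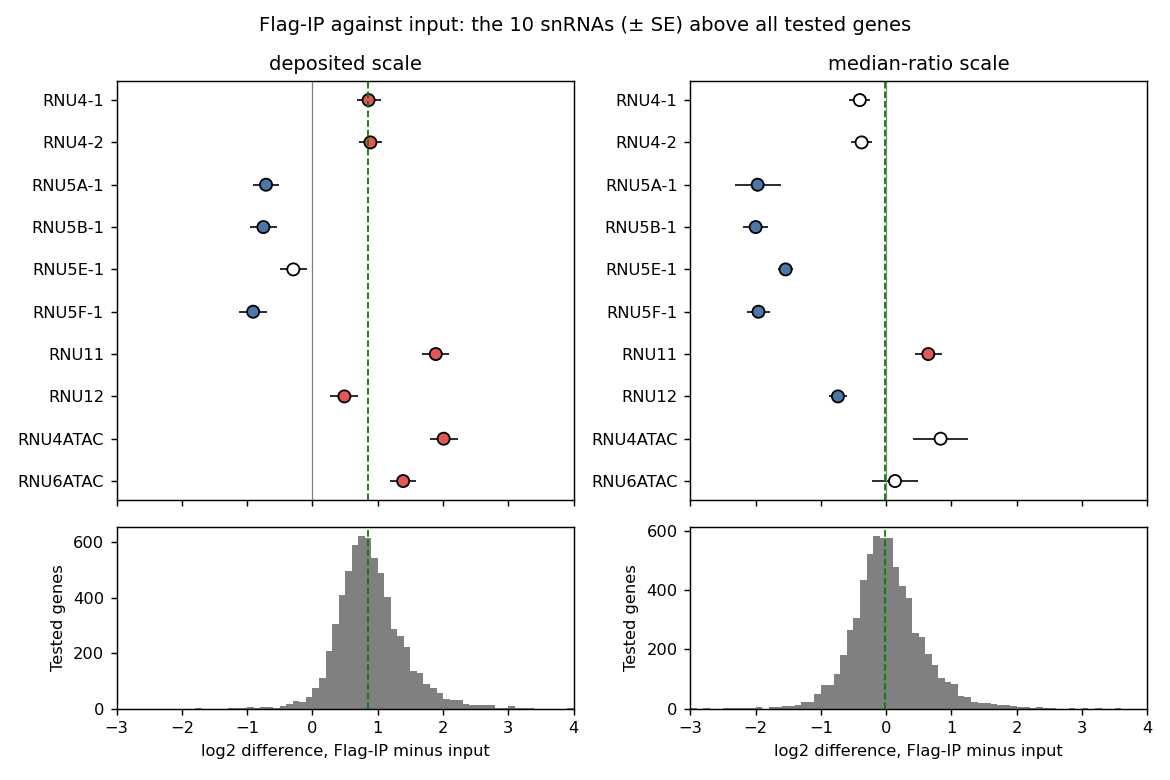
Upper panels, log2 difference (Flag-IP minus input, ± SE from limma) of each snRNA, as deposited (left) and after median-ratio scaling (right), filled red where higher, blue where lower and white where the adjusted p was 0.05 or more; lower panels, counts of all 6487 tested genes by difference, with the median as a dashed line (0.84 and -0.01) and values beyond the axis placed in the end bins. The U5 rows lie left of nearly all tested genes on both scales.

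Other spliceosomal snRNAs were scarce in the table. Of 23 further rows, 11 were listed at 0 in all libraries, among them RNU2-1 and all 5 U6 rows, although U1, U2 and U6 are abundant in cells. The rows RNU1-1 to RNU1-4 and RNVU1-18, which stand for U1, held the same values in every library, 3.81 and 2.71 TPM in the inputs against 4.50 and 12.54 TPM in Flag-IP, so they count as 1 measurement. Of 8 rows tested, 5 were higher as deposited and 1 lower, against 86.6% and 0.740% of all tested genes. On the median-ratio scale 0 were higher and 3 lower, with a median of 0.00, against 22.3% and 18.6% of all tested genes. The 5 higher rows were those 5 U1 rows, and without Flag-IP 3, their highest library, or with no filter 0 rows were called higher. RNU5D-1 was lower on both scales (-0.61 ± 0.22 and -1.76 ± 0.098, limma adjusted p = 0.0064 and 0.000386), although leaving out input 3 or Flag-IP 3 ended the deposited call (adjusted p = 0.13 and 0.060). RNVU1-7, a variant U1, was at 8.88 ± 2.76 TPM in the inputs against 7.80 ± 2.16 TPM in Flag-IP, and at -1.28 ± 0.16 on the median-ratio scale (limma adjusted p = 0.0028), where as deposited it was at -0.16 and did not pass. The other lower row on that scale, named after its value was seen, was RNVU1-19 at -0.71 (limma adjusted p = 0.0093; 0.22 as deposited, not passed).

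Small Cajal body RNAs guide the pseudouridylation and methylation of snRNAs. Of 28 such rows, 23 were tested. As deposited 10 were higher and 3 lower, against 86.6% and 0.740% of all tested genes. After median-ratio scaling 1 was higher and 10 lower, against 22.3% and 18.6% of all tested genes. The list medians were 0.14 as deposited and -0.67 on the median-ratio scale. The deposited counts were 5 higher without input 1 or input 3 and 6 without Flag-IP 3, 1 lower without input 3 or Flag-IP 1, and 3 higher and 1 lower with no filter. On the median-ratio scale 0 were higher without Flag-IP 3 and 2 without input 1 or Flag-IP 1. The most abundant were SCARNA16, with input at 38.9 ± 3.19 TPM and Flag-IP at 39.7 ± 5.996, and SCARNA10, at 29.3 ± 4.56 and 28.5 ± 4.07. Relative to the typical gene they were at -1.21 ± 0.22 and -1.26 ± 0.18 (limma adjusted p = 0.0089 and 0.0039), though SCARNA16 was at 0.02 as deposited. SCARNA22 and SCARNA18 had the largest differences, -1.61 ± 0.28 and -1.59 ± 0.40 (limma adjusted p = 0.0071 and 0.023); the call of SCARNA18 was lost without input 3 (adjusted p = 0.053).

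The mRNAs of the proteins that these snRNAs bind were called in both directions on the median-ratio scale, and in 1 direction, higher, as deposited. Over all tested genes the shares were 22.3% higher and 18.6% lower on the median-ratio scale, and 86.6% and 0.740% as deposited. Of 13 tested mRNAs for Sm and LSm ring proteins, 1 was higher and 4 lower on the median-ratio scale, with a median of -0.24, and 9 were higher and 0 lower as deposited. On the median-ratio scale 0 were higher without input 3 and 2 lower without Flag-IP 1. SNRPD2, an Sm core protein, was at 31.9 ± 3.29 TPM in the inputs against 42.3 ± 1.65 in Flag-IP (-0.83 ± 0.12, limma adjusted p = 0.0037), and LSM7 of the LSm ring at 9.82 ± 0.0636 and 13.4 ± 0.983 TPM (-0.75 ± 0.12, limma adjusted p = 0.0053); on the deposited scale they were at 0.40 and 0.41 and did not pass. SNRPB, the Sm B protein mRNA, was at 24.02 ± 0.453 and 44.0 ± 0.396 TPM (-0.38, not passed; 0.85 as deposited, higher). Of 16 tri-snRNP protein mRNAs, all 16 were higher as deposited, and after median-ratio scaling 2 were higher and 0 lower, with a median of 0.06. PRPF3, a protein of the U4/U6 particle, went from 1.23 ± 0.0636 to 6.28 ± 1.69 TPM (0.78 ± 0.12, limma adjusted p = 0.0043), and PRPF8, the U5 protein at the catalytic centre, from 7.80 ± 0.672 to 23.8 ± 2.38 TPM (0.32 ± 0.10, limma adjusted p = 0.049). The call of PRPF8 was lost whichever library was left out (adjusted p from 0.062 to 0.22). SNRNP200, the helicase that unwinds U4 from U6, was at 0.25 and PPIH, a cyclophilin of the tri-snRNP, at 0.33, and neither passed on that scale. Both passed as higher with scaling on non-structural genes (limma adjusted p = 0.0109 and 0.0102), with quantile scaling (0.024 and 0.044) and with a filter at 5 TPM (0.0117 and 0.0142). The list then had 6, 4 and, of 5 still tested, 4 higher members, against 1 whichever library was left out.

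Minor spliceosome proteins were split. The counts of this and the next 2 lists stand against 22.3% higher and 18.6% lower of all tested genes (86.6% and 0.740% as deposited). Of 6 tested mRNAs, 2 were higher and 2 lower on the median-ratio scale (4 and 0 as deposited), with a median of -0.12. Without Flag-IP 1 the counts were 0 higher and 1 lower (1 higher as deposited), 1 was higher without input 1 or Flag-IP 3, and 1 was lower without input 1 or input 3. RNPC3, which bridges U11 and U12, went from 0.315 ± 0.106 to 3.11 ± 1.06 TPM (1.00 ± 0.13, limma adjusted p = 0.0029). Its inputs, at 0.24 and 0.39 TPM, lay below 1 TPM. It passed the filter only through Flag-IP, which favours a higher call. The same can hold for other scarce rows of these lists, so their higher counts depend on the filter. With a filter at 5 TPM 0 minor spliceosome mRNAs were tested. Applied anew without Flag-IP 1, the filter at 1 TPM kept 4 of the 6. A count can thus fall because a row left the test. SNRNP25, another U11/U12 protein, was at 2.69 ± 0.191 and 3.05 ± 0.361 TPM (-0.80 ± 0.14, limma adjusted p = 0.0081; 0.13 as deposited, not passed), and ZCRB1 was at 1.56 ± 0.304 and 2.76 ± 1.011 TPM (-0.31, not passed; 0.53 as deposited, higher). Of 13 mRNAs of the SMN complex and snRNP assembly, 2 were higher and 1 lower (13 and 0 as deposited), with a median of 0.07. On the median-ratio scale 1 was higher whichever library was left out, and 0 were lower without input 3, Flag-IP 1 or Flag-IP 3; as deposited 8 were higher without input 1. SNUPN, the adaptor that imports assembled snRNPs into the nucleus, was at 0.71 ± 0.13 and GEMIN5, which recognises snRNAs for Sm assembly, at 0.36 ± 0.10 (limma adjusted p = 0.0096 and 0.031); CLNS1A, a chaperone of Sm proteins, was at -0.30 and did not pass (0.74 as deposited, higher). The call of GEMIN5 was lost whichever library was left out (adjusted p from 0.078 to 0.12). Of 18 mRNAs for snRNA transcription, the Integrator complex that cuts snRNA 3′ ends and SNAPc, 5 were higher and 2 lower (16 and 0 as deposited), with a median of 0.22. With a filter at 5 TPM 2 of these mRNAs were tested, and 0 of the SMN list. With 1 library left out, 14 to 20 mRNAs of the transcription list were tested. The counts were 3, 2 and 2 higher and 0 lower without input 3, Flag-IP 1 and Flag-IP 3, 1 lower without input 1, and 9 higher and 0 lower with scaling on non-structural genes. INTS8 and INTS1 of Integrator were at 0.61 ± 0.16 and 0.58 ± 0.13 (limma adjusted p = 0.024 and 0.016), and INTS10 was at -0.087 and did not pass (0.98 as deposited, higher). The call of INTS1 was lost without input 1 (adjusted p = 0.062) or Flag-IP 3 (0.055), and that of INTS8 without input 3 (0.083) or Flag-IP 1 (0.093).

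**Figure D5:**
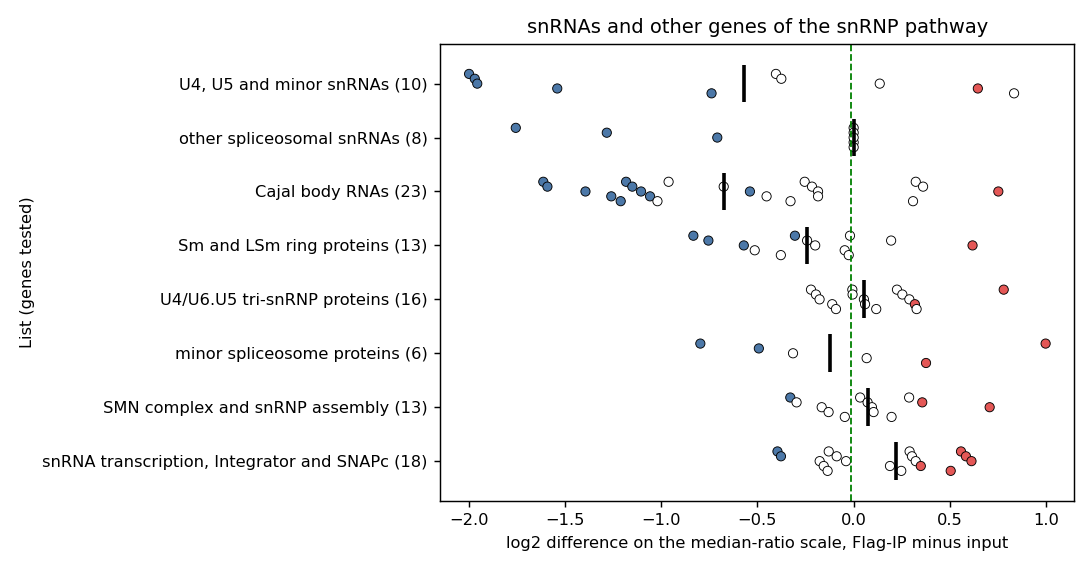
log2 difference on the median-ratio scale (Flag-IP minus input) of each tested gene, by list with the number tested, filled red where higher, blue where lower and white where not called by limma; thick bars are list medians, the dashed line is the median of all tested genes (-0.01), and points are shifted vertically only for display. The leftmost points of the snRNA row are the 4 U5 copies, and the list medians run from -0.67 to 0.22.

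The rows most like U4 and U5 were sought among 685 rows with a mean of at least 10 TPM, by the Euclidean distance between log2(TPM + 1) values centred on their own mean, over the 4 libraries. Nearest to the U4 sum were SNRPB (distance 0.0432), EIF1 (0.0530), RPL10 (0.0670), FABP5 (0.0777) and CD74 (0.0789), all mRNAs, with ratios of mean TPM from 1.83 to 1.99. Nearest to the U5 sum were SNORA64 (0.172) and SNORA70 (0.287), which are H/ACA small nucleolar RNAs, SCARNA22 (0.362), MTRNR2L10 (0.380) and RNA28S5 (0.390), the 28S ribosomal RNA row, with ratios from 0.548 to 0.782. The distances to U5 were larger than those to U4, and 4 libraries give little ground for ranking.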

How the data were processed

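RNA immunoprecipitation sequencing gave 2 input and 2 Flag-IP libraries of NOMO-1 cells, numbered 1 and 3. Per the submitters' processing notes the authors used STAR, RSEM and GRCh38; the sources used here give no versions, gene annotation or use of strand. The authors deposited TPM per gene symbol, rounded to 2 decimals, and each library sums to 1000000 within rounding. The depth is unknown, so precision rests on the spread between the 2 libraries of a group. As deposited that spread was pooled over genes, not taken from each gene.

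Rows averaging 1 TPM or more entered limma 3.58.1 in R 4.3.3 on log2(TPM + 1) (eBayes with a mean-variance trend, two-sided, Benjamini-Hochberg over all tested genes, adjusted p below 0.05), as deposited and after median-ratio scaling over tested rows above 0 in all libraries. On the deposited scale limma's prior degrees of freedom were infinite: each error is then set by the trend alone, and p-values may be too small; on the median-ratio scale they were 4.02, with 2 residual. All 10 members passed the filter. As the mean was taken over all 4 libraries, a row below 1 TPM in input could enter through Flag-IP. The filter thus favoured rows high in Flag-IP. When 1 library was left out, the mean was taken over the others, so 5680 to 6974 rows were tested. Among the named genes RNPC3, GEMIN5 and INTS8 had input means below 1 TPM (0.315, 0.98 and 0.93 TPM). Sums over copies and list medians were not tested. Ratios were tested by exact permutation in scipy 1.17.1. Identities are from global alignments in Biopython 1.88. Coordinates and sequences are from GENCODE 29.

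The deposited-scale fit was run on simulated data with the same noise for every gene and changes in a small part of the genes. A shift of most genes was not simulated, nor was the median-ratio fit. Alternatives were other scalings, filters and pseudocount, no trend, a replicate block and each library left out; a crossed block was added after seeing the data. The members, lists and rules were chosen with earlier results of these data known. Named were all members and, per list, the 2 tested genes of highest mean and the 2 of largest median-ratio difference, plus the 5 rows most like U4 and U5; pseudogene rows of the member types were to be named too, and the rule matched no row. CLASP1 was named as a gene overlapping a member. 3 listed protein genes that were not matched to a row are not analysed here. U5 sequences are not reported here.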

Additional observations from a re-analysis of the deposited data

How the results depend on the processing

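For the members, 103 of 130 alternatives to the deposited fits and 110 of 130 to the median-ratio fits kept direction and call. Scaling moved most. With median-ratio, quantile and structural-RNA-free scaling, 1, 3 and 1 members were higher and 5, 4 and 5 lower, against 6 and 3 as deposited; over all tested genes 1444, 1328 and 2037 were higher and 1207, 1161 and 656 lower, against 5616 and 48. RNU4-1 was at -0.40, 0.92 and -0.16, RNU4-2 at -0.38, 1.38 and -0.13 and RNU12 at -0.74, -0.29 and -0.50, against 0.86, 0.89 and 0.49 as deposited. With median-ratio scaling and with structural RNAs left out, the log2 ratio of mean TPM was -0.38 and -0.14 for U4 (0.88 as deposited), -1.87 and -1.64 for U5 (-0.62), 0.67 and 0.90 for U11 (1.92), -0.75 and -0.51 for U12 (0.49), 0.94 and 1.17 for U4atac (2.18) and 0.18 and 0.41 for U6atac (1.42).

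Without a filter 5 members were higher and 1 lower as deposited, against 7704 and 35 of 15678 genes. On the median-ratio scale 0 members were then higher and 5 lower, against 1389 and 855 genes. With a filter at a mean of 5 TPM, 1272 of 1539 genes were higher and 25 lower as deposited. On the median-ratio scale these counts were 392 and 355. With each library left out, 0 to 2 members were higher on the median-ratio scale, all tested genes numbered 897 to 1226 higher and 567 to 916 lower there, the log2 ratio of U12 ranged from 0.33 to 0.68, the log2 change of the U4 to U5 ratio from 1.34 to 1.68 and the change of the RNU4-2 to RNU4-1 ratio from -0.021 to 0.077. The lowest counts over all genes, and the 2 members, were those without Flag-IP 1, and 0 members were higher without input 3 or Flag-IP 3. RNU6ATAC ranged from -0.32 to 0.67 relative to the typical gene.

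The labels do not say that a number marks a shared culture. Deviations of same-numbered libraries from their group means were only weakly, and negatively, correlated over tested genes (-0.168 as deposited, -0.187 on the median-ratio scale). With the replicate block 0 members were higher and 5 lower on the median-ratio scale, against 1286 and 1055 of 6487 tested genes. Calls no longer past the threshold there were those of RNU11 (limma adjusted p = 0.0854), PRPF8 (0.0920) and GEMIN5 (0.0552). As deposited they were those of RNU12 (limma adjusted p = 0.172) and RNU5D-1 (0.0839). With a crossed replicate block 2 members were higher and 7 lower on the median-ratio scale, against 1409 and 1275 genes.

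Among the other named genes, set on the median-ratio scale, 333 of 393 alternatives kept direction and call. As deposited these turned: CD74 to 0.90, CLNS1A to 0.74, EIF1 to 0.84, FABP5 to 0.92, INTS10 to 0.98, LSM7 to 0.41, RPL10 to 0.91, SCARNA16 to 0.021, SNRNP25 to 0.13, SNRPB to 0.85, SNRPD2 to 0.40 and ZCRB1 to 0.53. With quantile scaling EIF1 was at 0.016, RPL10 at 0.23, SNRPB at 0.071 and RNA28S5 at 0.00, and INTS10 was at 0.12 with structural RNAs left out and 0.097 with a filter at 5 TPM. Median-ratio scaling divided inputs 1 and 3 by 0.599 and 0.696 and Flag-IP 1 and 3 by 1.72 and 1.39. By construction this lowers every difference relative to the deposited scale. The cause of the other changes was not tested. Depth cannot be judged from TPM, so no limit of detection is given for the rows listed at 0.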
